A study of Mus musculus with 6 samples.

Results

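Podoplanin, PDGF receptor alpha and 8 other surface proteins by which fibroblast subsets are sorted were followed at the RNA level in pancreatic stellate cells (PSCs) at 2 oxygen levels. The 10 genes are Pdpn, Pdgfra, Ly6a, Ly6c1, Thy1, Eng, Cd34, Dpp4, Fap and Cspg4, taken by name from the 55426 features of the deposited table through their Ensembl identifiers in GENCODE M21, and all 10 were among the 16207 genes with enough counts to be tested. The PSCs are fibroblast precursors isolated from the pancreas of young adult wild-type C57BL/6 mice and used at early passage. They were embedded in Matrigel in a transwell insert above organoids of mT3, a mouse tumor line of pancreatic ductal adenocarcinoma (PDAC), so every sample had tumor organoids below it and no sample of PSCs alone is analysed here. The 3 normoxic samples were kept at 21% O2 and the 3 hypoxic samples at 1% O2, each for 48 h. The labels do not say whether samples came from separate PSC lines, so p-values measure the spread between these samples, which may be technical.

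Antibodies to these proteins are the tools by which stromal cells are separated. Podoplanin (Pdpn) and PDGFRA mark fibroblasts broadly, fibroblast activation protein (Fap) marks activated fibroblasts, CD34, SCA-1 (Ly6a) and DPP4 are used for adventitial and progenitor-like fibroblasts, THY1 and endoglin (Eng) divide fibroblasts into subsets, and NG2 (Cspg4) is used for pericytes. In PDAC, podoplanin-positive cancer-associated fibroblasts (CAFs) are divided further by Ly6C and MHC class II. Cells with Ly6C are called inflammatory CAFs (iCAFs), cells with MHC class II antigen-presenting CAFs, and cells with neither myofibroblastic CAFs. The antigen Ly6C is encoded by the close copies Ly6c1 and Ly6c2. What was measured here is RNA in a whole culture, not protein on single cells.

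Hypoxic PSCs held more RNA of Pdpn (1.98-fold) and Pdgfra (1.76-fold) and less of Ly6c1 (3.93-fold lower), Cd34 (2.54-fold lower), Ly6a (2.16-fold lower) and Thy1 (2.01-fold lower). Eng differed by less than the 1.5-fold threshold, and Dpp4, Fap and Cspg4 did not pass the test. So 2 of the 10 genes were called higher and 4 lower, where a call is a fold change beyond 1.5 with an adjusted p under 0.05 in edgeR's quasi-likelihood test. Among all tested genes 18.9% were called higher and 15.3% lower, 34.2% together. For 7 of the 10 genes no hypoxic sample overlapped a normoxic sample, a separation found in 68.9% of all tested genes. The median log2 fold change was -0.22 over the 10 genes and -0.0040 over all tested genes. In bulk samples, fewer cells of a type and less RNA per cell cannot be told apart.

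**Figure D1:**
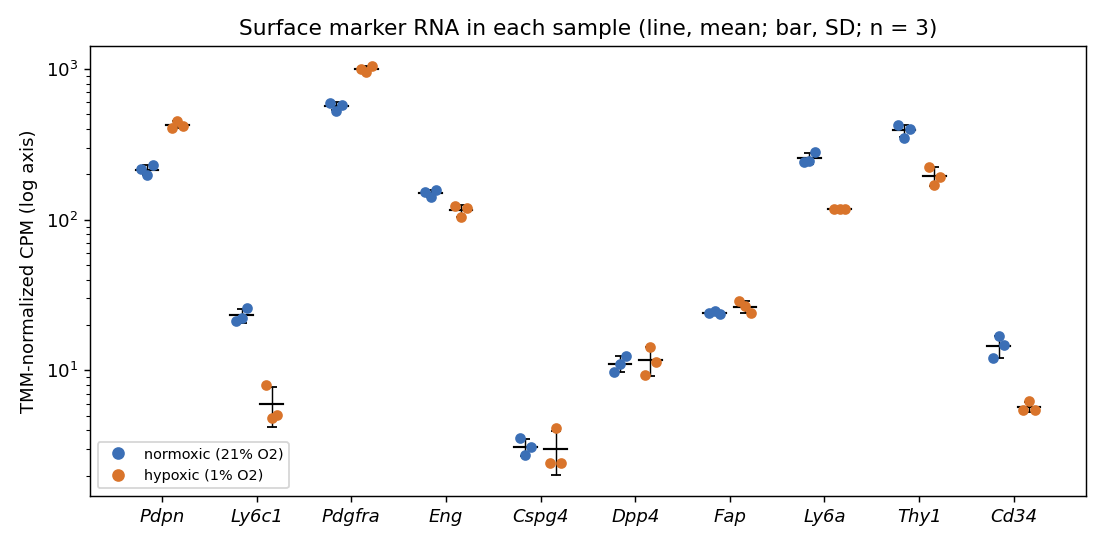
RNA level of the 10 surface markers in each sample, in TMM-normalized CPM on a log axis, with blue points for the 3 normoxic samples and orange points for the 3 hypoxic samples (line, mean; bar, SD). Pdpn and Pdgfra sit higher in every hypoxic sample, Ly6c1, Ly6a, Thy1, Cd34 and Eng lower, and Dpp4, Fap and Cspg4 overlap.

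The sequences in front of 4 of these genes are shown because they are the 2 genes that rose and 2 that fell by more than 2-fold. They come from RefSeq on build GRCm38.p6 and run from 250 bases before to 50 bases after the annotated start, 5′ to 3′ on the gene's strand. Windows were matched for 7 of the 10 genes (Pdpn, Pdgfra, Ly6c1, Eng, Cd34, Dpp4 and Cspg4). Capitals mark the core of a hypoxia response element, the DNA motif that hypoxia-inducible factors bind, searched as ACGTG or GCGTG on both strands. ACGTG is also part of the E-box CACGTG.
Pdpn (chr4:143299515-143299814, minus strand): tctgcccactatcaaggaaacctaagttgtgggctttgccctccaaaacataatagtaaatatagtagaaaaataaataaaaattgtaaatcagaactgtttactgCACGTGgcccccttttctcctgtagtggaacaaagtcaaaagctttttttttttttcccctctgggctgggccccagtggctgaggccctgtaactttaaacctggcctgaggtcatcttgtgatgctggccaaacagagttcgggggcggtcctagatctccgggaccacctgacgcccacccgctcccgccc
Pdgfra (chr5:75152001-75152300, plus strand): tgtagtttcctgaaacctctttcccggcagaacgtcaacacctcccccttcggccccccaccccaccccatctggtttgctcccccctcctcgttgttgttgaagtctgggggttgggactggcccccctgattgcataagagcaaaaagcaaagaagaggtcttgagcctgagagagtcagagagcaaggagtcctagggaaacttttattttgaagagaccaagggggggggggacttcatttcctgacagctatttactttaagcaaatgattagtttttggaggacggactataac
Ly6c1 (chr15:75048788-75049087, minus strand): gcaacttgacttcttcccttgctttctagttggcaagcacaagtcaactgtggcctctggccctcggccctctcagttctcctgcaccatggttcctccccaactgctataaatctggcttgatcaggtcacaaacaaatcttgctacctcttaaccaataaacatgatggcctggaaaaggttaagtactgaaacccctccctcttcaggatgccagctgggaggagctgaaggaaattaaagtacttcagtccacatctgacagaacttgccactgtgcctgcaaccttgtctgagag
Cd34 (chr1:194938571-194938870, plus strand): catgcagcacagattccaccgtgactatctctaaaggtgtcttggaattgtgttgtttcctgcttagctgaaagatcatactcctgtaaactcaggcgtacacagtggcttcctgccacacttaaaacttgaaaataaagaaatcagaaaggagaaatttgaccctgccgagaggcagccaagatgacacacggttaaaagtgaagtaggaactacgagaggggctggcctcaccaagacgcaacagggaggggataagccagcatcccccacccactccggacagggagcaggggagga
The Pdpn window held the motif in the form CACGTG, from base -144 to base -139 relative to the start. The windows of Pdgfra, Ly6c1 and Cd34 held neither form. For Ly6c1 a second window was matched (chr15:75048614-75048913), from a start further into the gene, and it held neither form. The printed window is that of the outer start. Of the 7 genes with a window, 2 had a match, Pdpn and Cspg4, and in Cspg4 it was CACGC, the reverse complement of GCGTG, from base 38 to base 42 after the start. Among all 32851 windows of this length 43.8% held a match and 7.15% held CACGTG. A match is a string of letters in the window and was not tested as a binding site.

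Pdpn (ENSMUSG00000028583; chromosome 4 of GRCm38, 143267431 to 143299564, minus strand) encodes a mucin-like glycoprotein that binds the platelet receptor CLEC-2. It is the antigen by which the study gated all CAFs of its mouse tumors. It stood at 216, 198 and 231 CPM in normoxic samples 1, 2 and 3 and at 407, 451 and 422 CPM in hypoxic samples 1, 2 and 3. CPM is the count scaled to a common library size by the TMM method. The hypoxic samples all lay above the normoxic samples. The means were 215 ± 16.4 and 426 ± 22.4 CPM (SD, n = 3 each), which is 0.99 on the log2 scale (standard error 0.07, edgeR adjusted p = 4.39e-06). No stretch of 75 bases of its transcripts occurs in the transcripts of another gene.

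Ly6c1 (ENSMUSG00000079018; chromosome 15, 75044018 to 75048830, minus strand), a GPI-anchored protein of the LY6 family, changed most of the 10 genes. Its RNA was at 21.4, 22.3 and 26 CPM under normoxia and at 8.01, 4.82 and 5.06 CPM under hypoxia. The hypoxic samples were all lower, and replicate 1 was the highest among them. The means were 23.2 ± 2.45 and 5.96 ± 1.78 CPM (SD, n = 3 each), which is -1.97 on the log2 scale (standard error 0.18, edgeR adjusted p = 1.63e-05). Of the 75-base stretches in Ly6c1 transcripts, 19.0% also occur in another gene, chiefly Ly6c2 with 14.7% and then Ly6a. Ly6c2 itself held 2, 4 and 4 counts under normoxia and 1 count in each hypoxic sample, too few to be tested. The counts of Ly6c1 and Ly6c2 were also summed, a step chosen after the data were seen. The log2 fold change of the sum was again -1.97 (edgeR adjusted p = 1.62e-05). Ly6c2 added so few counts that the sum could hardly differ from Ly6c1 alone. Ly6a held 2991 to 6883 counts per sample against 151 to 641 for Ly6c1. How reads were divided between Ly6c1 and Ly6a was not tested.

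Podoplanin-positive CAFs are divided by Ly6C in the study's gate. That gate was flow cytometry of protein on cells from orthotopic mouse tumors, and the paper reports no use of it on these cultures. In those tumors the paper found a larger share of iCAFs among hypoxic CAFs than among normoxic CAFs. With mT3 organoids below, Lif, Cxcl1 and Il6 RNA rose in hypoxic PSCs by RT-PCR, and the paper reads these genes as marking iCAFs. Whether the RNA ratio below follows the share of iCAFs was not tested. The ratio of Ly6C to Pdpn RNA within a sample, a measure chosen here, does not depend on library scaling. Per 1000 Pdpn counts, the normoxic samples held 99.2, 113 and 113 counts of Ly6c1 and Ly6c2 together, and the hypoxic samples 19.8, 10.8 and 12.1. On the log2 scale the ratio was -3.21 ± 0.11 in normoxic and -6.19 ± 0.47 in hypoxic samples (SD, n = 3 each). The difference of -2.98, or 7.92-fold lower, had p = 0.1 in an exact two-sided permutation test, the smallest p that 3 samples against 3 can give. This difference joins the 3.93-fold lower Ly6c1 with the 1.98-fold higher Pdpn and is not a separate result. Of the 9 genes of the gate 6 were tested, with 2 called higher (Pdpn and H2-Ab1) and 1 lower (Ly6c1). The other genes of the gate were at low levels or absent, apart from H2-Ab1 and Ptprc. In CPM, the hypoxic samples of Ptprc overlapped those of Ly6c1. Epcam, used to exclude epithelial cells, had at most 1 count in any sample. Ptprc (CD45) was at 11.1 ± 2.50 CPM in normoxic and 7.32 ± 2.34 CPM in hypoxic samples, and Pecam1 (CD31) at 2.17 ± 0.763 and 2.13 ± 0.770 CPM (SD, n = 3 each), and neither passed the test (edgeR adjusted p = 0.0514 and 0.967). Of the class II genes, H2-Ab1 rose from 4.22 ± 0.689 to 129 ± 3.51 CPM (SD, n = 3 each, edgeR adjusted p = 7.32e-09), while H2-Aa had at most 2 counts in any sample and H2-Eb1 was at 0.65 ± 0.17 and 0.97 ± 0.35 CPM (edgeR adjusted p = 0.163).

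**Figure D2:**
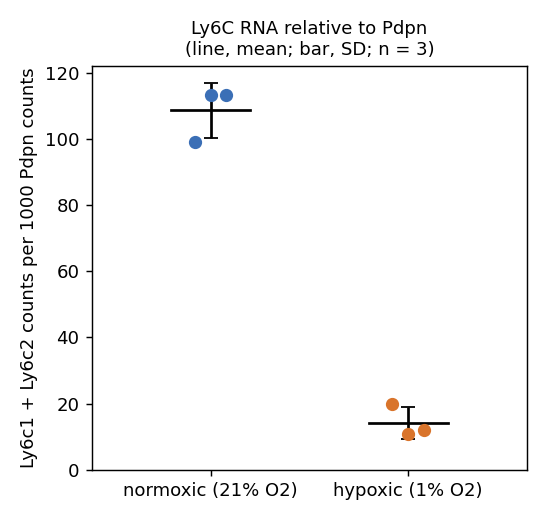
Counts of Ly6c1 and Ly6c2 together per 1000 counts of Pdpn in each of the 3 normoxic (blue) and 3 hypoxic (orange) samples, on a linear axis from 0 (line, mean; bar, SD). The normoxic samples lie between 99.2 and 113 and the hypoxic samples between 10.8 and 19.8.

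Pdgfra (ENSMUSG00000029231; chromosome 5, 75152292 to 75198215, plus strand) encodes the receptor tyrosine kinase for PDGF-AA and related ligands. It was at 597, 530.2 and 577 CPM under normoxia and at 1001, 957 and 1040.2 CPM under hypoxia, again with every hypoxic sample above. The means were 568 ± 34.4 and 999 ± 41.7 CPM (SD, n = 3 each), which is 0.82 on the log2 scale (standard error 0.07, edgeR adjusted p = 9.79e-06). Its exons overlap the antisense genes Gm42802 and Gm42803. Exons of Eng, Cd34 and Dpp4 likewise overlap genes on the other strand, which are Fpgs, Gm16897 and Gm13561 in that order. The strand setting of the counting is not given in the sources used here, so reads of these 4 genes and of their antisense partners may not be told apart. The related receptor Pdgfrb, which shares ligands with it, was at 596 ± 78.7 and 479.6 ± 54.1 CPM (SD, n = 3 each) with overlapping samples. Its log2 fold change of -0.31 (edgeR adjusted p = 0.033) was within the 1.5-fold threshold. The counts of Pdgfrb per count of Pdgfra were 1.09, 0.956 and 1.09 under normoxia and 0.520, 0.437 and 0.480 under hypoxia, lower in each hypoxic sample. Of the 6 genes of PDGF ligands and receptors, Pdgfra was called higher and 0 were called lower, with a median log2 fold change of 0.017. The ligand genes Pdgfa (log2 fold change 0.54), Pdgfb (0.35), Pdgfc (-0.31) and Pdgfd (-0.36) were not called.

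Eng (ENSMUSG00000026814; chromosome 2, 32646595 to 32682669, plus strand) encodes endoglin, a co-receptor for ligands of the TGF-beta and BMP families. It was at 153, 142 and 157 CPM under normoxia and at 123, 104 and 119 CPM under hypoxia. The samples did not overlap. The log2 fold change of -0.38 (standard error 0.07, 95% interval -0.55 to -0.22) had an edgeR adjusted p of 0.0017, but at 1.31-fold it was inside the fold threshold and is not counted among the calls. Of 10 genes of receptors, ligands and the sheddase that act with endoglin, 8 were tested, 2 were called higher and 0 lower, with a median log2 fold change of 0.21. Those called were Acvrl1, the type I receptor ALK1, from 67.6 ± 5.18 to 113 ± 2.82 CPM, and Acvr2b, a type II activin receptor, from 1.78 ± 0.142 to 3.56 ± 0.121 CPM (SD, n = 3 each). Their edgeR adjusted p were 1.29e-05 and 0.000633. The endoglin ligand genes Gdf2 and Bmp10 had at most 2 counts in any sample.

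Cspg4 (ENSMUSG00000032911; chromosome 9, 56865033 to 56899870, plus strand) encodes the proteoglycan NG2 and was the least abundant of the 10 genes. It was at 3.54, 2.73 and 3.08 CPM under normoxia and 2.43, 4.12 and 2.42 CPM under hypoxia, which overlapped. The log2 fold change of -0.06 had a 95% interval from -0.60 to 0.48 (edgeR adjusted p = 0.852), which at 62 to 129 counts per sample is wide enough to include a 1.5-fold decrease. Of 6 genes for its binding partners 5 were tested, with a median log2 fold change of -0.099, and only Lgals3, galectin-3, was called, rising from 154 ± 27.2 to 312 ± 30.6 CPM (SD, n = 3 each, edgeR adjusted p = 0.000108). Other mural cell markers did not share a direction. Among 9 tested, Rgs5, Kcnj8 and Notch3 were called higher and Mcam and Myh11 lower, and Higd1b was at 0 in every sample, with a list median of -0.31. Kcnj8 was just inside the threshold (edgeR adjusted p = 0.0499) with overlapping samples. Mcam was at 15.4 CPM in normoxic sample 2 against 6.47 and 6.61 CPM in normoxic samples 1 and 3. The summed mural markers ran from 644 to 811 CPM in normoxic and from 595 to 688 CPM in hypoxic samples.

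The neighboring genes Dpp4 (ENSMUSG00000035000; chromosome 2, 62330073 to 62412231, minus strand) and Fap (ENSMUSG00000000392; chromosome 2, 62500943 to 62574075, minus strand) encode related surface proteases that cleave after proline. Dpp4 was at 9.70, 11.0 and 12.5 CPM under normoxia and 9.39, 14.3 and 11.4 CPM under hypoxia. Fap was at 23.9, 24.7 and 23.7 CPM under normoxia and 28.7, 26.8 and 24 CPM under hypoxia. The conditions overlapped for both genes. The log2 fold change was 0.09 for Dpp4 (95% interval -0.27 to 0.44, edgeR adjusted p = 0.653) and 0.14 for Fap (95% interval -0.04 to 0.31, edgeR adjusted p = 0.149). Both intervals lie within a fold change of 1.5 in either direction. Of the 9 genes listed for this protease family 8 were tested and Dpp6, a relative without peptidase activity, was the only gene called, with a list median of 0.11 on the log2 scale. Dpp6 rose from 1.44 ± 0.0833 to 26.5 ± 3.14 CPM (SD, n = 3 each, edgeR adjusted p = 5.14e-08).

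Ly6a (ENSMUSG00000075602; chromosome 15, 74994877 to 74998031, minus strand), the gene of SCA-1, lies near Ly6c1 in the same cluster. It was at 240.2, 246 and 279 CPM under normoxia and at 117, 118 and 118 CPM under hypoxia. All hypoxic samples were lower, and they differed from each other by less than in any other of the 10 genes, with a coefficient of variation of 0.418%. The log2 fold change was -1.11 (standard error 0.07, edgeR adjusted p = 1.41e-06). Of the 75-base stretches in Ly6a transcripts 6.33% occur in another gene, mostly Ly6c1. With Ly6a, Ly6c1, Ly6c2, Ly6i and Ly6f summed, also chosen after the data were seen, the log2 fold change was -1.17 (edgeR adjusted p = 1.16e-06). Most counts of this sum were those of Ly6a. Of 16 genes listed for the LY6 family 6 were tested, 4 were called lower and 0 higher, with a median log2 fold change of -1.0. The others called lower were Ly6e, from 156 ± 11.0 to 84.2 ± 4.06 CPM (SD, n = 3 each, edgeR adjusted p = 5.19e-06), and Ly6h, from 44, 79 and 48 counts to 1, 2 and 6 counts (edgeR adjusted p = 4.24e-05).

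Thy1 (ENSMUSG00000032011; chromosome 9, 44043384 to 44048579, plus strand) encodes a GPI-anchored protein of the immunoglobulin superfamily that binds integrins. It was at 422, 349.8 and 402 CPM under normoxia and at 224, 169.6 and 191 CPM under hypoxia, all of them lower. The log2 fold change was -1.0 (standard error 0.11, edgeR adjusted p = 4.3e-05). Relative to Pdpn, Thy1 went from 1.95, 1.76 and 1.74 counts per Pdpn count to 0.550, 0.376 and 0.454, lower in each hypoxic sample. Among 6 genes of integrins and syndecan-4 that bind THY1, Itgb3 (integrin beta 3) rose from 15.0 ± 2.17 to 45.6 ± 2.62 CPM and Sdc4 (syndecan-4) from 170.2 ± 8.90 to 465 ± 14.8 CPM (SD, n = 3 each). Their edgeR adjusted p were 1.78e-06 and 1.81e-07, and 0 of the 6 were called lower, with a list median of 0.37 on the log2 scale.

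Cd34 (ENSMUSG00000016494; chromosome 1, 194938819 to 194961279, plus strand) encodes a sialomucin of progenitor cells, endothelium and resting fibroblasts. It was at 12.1, 16.9 and 14.8 CPM under normoxia and at 5.5, 6.29 and 5.44 CPM under hypoxia, again without overlap. The log2 fold change was -1.34 (standard error 0.14, edgeR adjusted p = 3.72e-05). Its relatives went in opposite directions. Podxl2, endoglycan, fell from 38.2 ± 1.58 to 14.9 ± 1.28 CPM and Podxl, podocalyxin, rose from 0.65 ± 0.41 to 2.86 ± 0.29 CPM (SD, n = 3 each). The edgeR adjusted p were 1.09e-06 for Podxl2 and 0.000689 for Podxl.

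**Figure D3:**
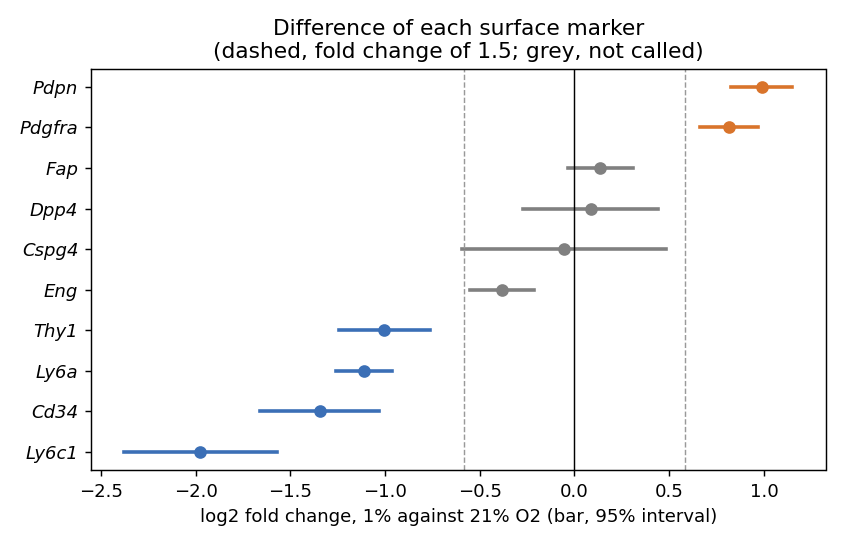
Log2 fold change of hypoxic against normoxic PSCs for the 10 genes, with 95% intervals from the edgeR fit and dashed lines at a fold change of 1.5 in either direction. Orange marks the 2 genes called higher, blue the 4 called lower and grey the 4 not called, with Eng the only grey interval that leaves out 0.

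Scaled by exon length, the levels of the 10 genes spanned a wide range, and the order at the top was different at the 2 oxygen levels. In normoxic samples Ly6a was highest at 212 ± 17.6 CPM per kb of exon, followed by Thy1 at 131 ± 12.4, Pdpn at 118 ± 9.0 and Pdgfra at 56.7 ± 3.43 (SD, n = 3 each). Thy1 and Pdpn overlapped there. In hypoxic samples Pdpn was highest at 235 ± 12.3 CPM per kb, and it was followed by Pdgfra at 99.7 ± 4.16, Ly6a at 97.9 ± 0.409 and Thy1 at 65.1 ± 9.08 (SD, n = 3 each). Pdgfra and Ly6a overlapped there. Eng was at rank 5 in both conditions, with 37.2 ± 2.0 and 28.5 ± 2.57 CPM per kb. Ly6c1 at 13.9 ± 1.46 was above Fap at 4.25 ± 0.0894 in all normoxic samples, while in hypoxic samples Ly6c1 at 3.56 ± 1.06 overlapped Fap at 4.68 ± 0.411 CPM per kb. Cd34 at 2.0 ± 0.333 overlapped Dpp4 at 1.75 ± 0.218 in normoxic samples and lay below it in every hypoxic sample, at 0.787 ± 0.065 against 1.85 ± 0.393 CPM per kb. Cspg4 was lowest in both, at 0.261 ± 0.034 and 0.251 ± 0.0817 CPM per kb. In CPM, not scaled by length, the mean over all samples put Pdgfra at percentile 99.2 and Cspg4 at percentile 24.3 of the tested genes.

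**Figure D4:**
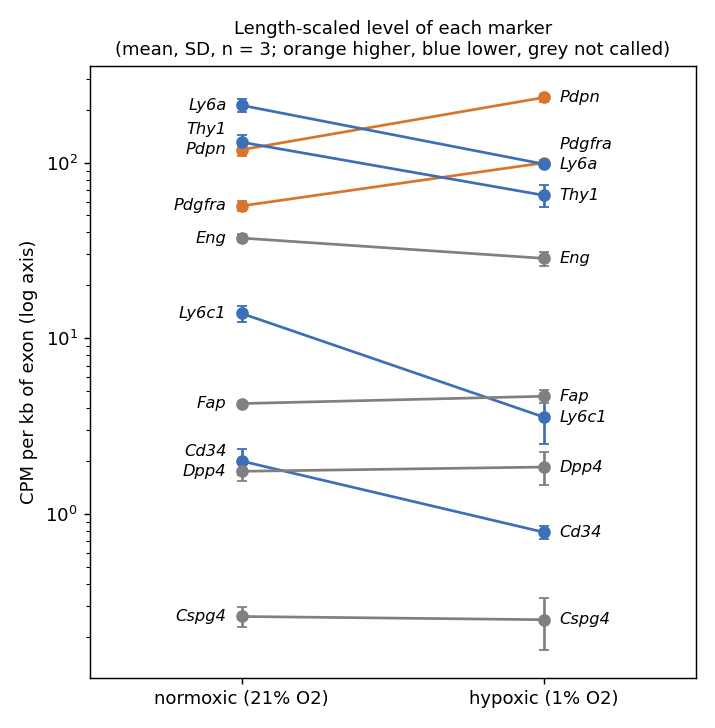
Mean level of each gene in CPM per kb of exon on a log axis, with SD bars over 3 samples, joined between normoxic (left) and hypoxic (right) PSCs (orange, called higher; blue, called lower; grey, not called). Pdpn moves from rank 3 to rank 1 and Pdgfra from rank 4 to rank 2, while Ly6a moves from rank 1 to rank 3 and Thy1 from rank 2 to rank 4.

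The genes whose pattern over the 6 samples was most like that of Pdpn were A4galt, Phyhd1 and Dtnb, at Euclidean distances of 0.090, 0.094 and 0.095 in centred log2 CPM among 16060 genes with counts in every sample. Those nearest to Ly6c1 were Lrrn2, Rapsn and 5031425F14Rik, at 0.23, 0.30 and 0.33. These are descriptions of likeness with no test.

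Other surface proteins by which stromal cells are sorted were also split. Of 30 such genes 29 were tested, 4 were called higher and 11 lower, with a median log2 fold change of -0.29. Cd36, a fatty acid transporter, had 1588, 3936 and 1541 counts under normoxia and 257, 644 and 412 under hypoxia, with replicate 2 the highest in both (log2 fold change -2.64, edgeR adjusted p = 0.00029). Mme, the protease CD10, fell from 104 ± 12.1 to 17.7 ± 2.38 CPM, and Ackr3, a scavenger receptor for CXCL12, rose from 16.7 ± 1.10 to 93.6 ± 8.44 CPM (SD, n = 3 each). Their edgeR adjusted p were 2.64e-07 and 6.2e-08. Among 7 genes of podoplanin's binding partners 6 were tested and 0 were called in either direction, with a median log2 fold change of -0.21, although 3 of them, Msn, Rdx and Lgals8, had an edgeR adjusted p under 0.05 (0.0322, 0.000754 and 0.00208) with fold changes inside the threshold.

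Ly6a, Cd34 and Dpp4 are used together for adventitial fibroblasts, and a list of 16 genes chosen for such cells was read beside them. How specific each listed gene is to those cells was not examined. Of 15 tested, 6 were called lower (Pi16, Dpt, Clec3b, Cd248, Cd55 and Limch1) and 3 higher, with a median log2 fold change of -0.21. Those called higher were Wnt2, from 0.41 ± 0.11 to 2.21 ± 0.47 CPM, the guidance factor gene Sema3c, from 2.29 ± 0.86 to 7.99 ± 2.56 CPM (SD, n = 3 each), and Ackr3. The edgeR adjusted p were 9.97e-05 for Wnt2 and 0.000605 for Sema3c. So Ly6a and Cd34 fell, Dpp4 did not pass the test, and the list they are read with moved in both directions.

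**Figure D5:**
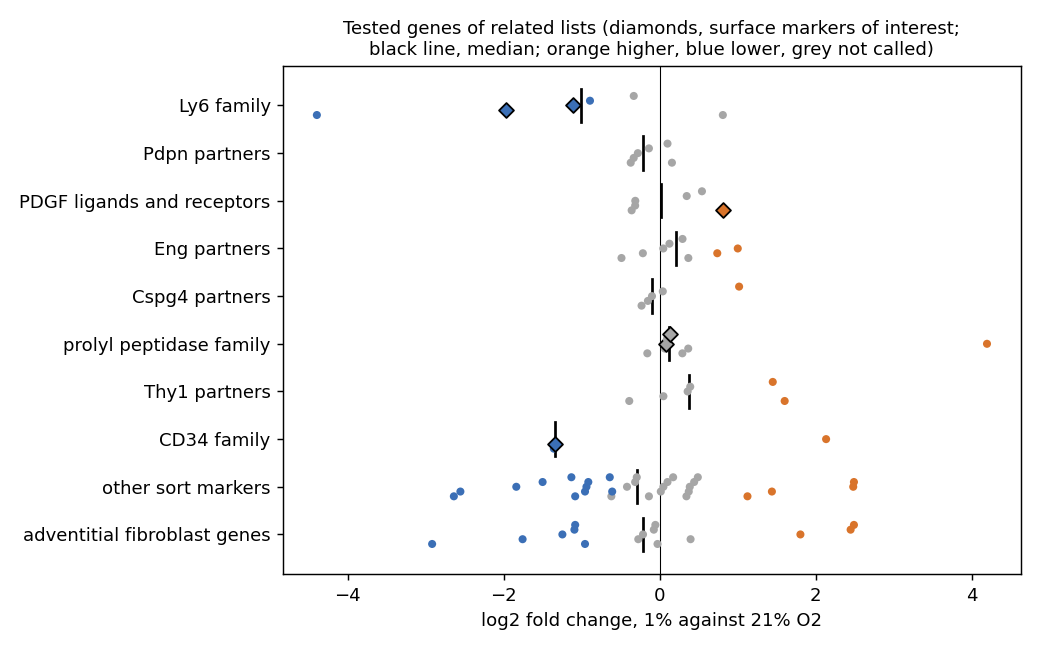
Log2 fold changes of all tested genes in 10 lists of partners, relatives and other markers, 1 point per gene (diamonds, the surface markers described here; black line, list median; orange, called higher; blue, called lower; grey, not called). Tested Ly6 family genes that were called all lie below 0, and the podoplanin partner list holds grey points alone.

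Several of the genes that fell are also made by blood and endothelial cells, so markers of those cells are given for comparison. Of 12 haematopoietic markers 10 were tested and 6 were called lower (Cd68, Adgre1, Lyz2, Tyrobp, Fcer1g and Laptm5) and 0 higher, and Cd3e was at 0 in every sample. Ptprc, Csf1r, Itgam and Cd53 were tested and not called. The list median was -0.95 on the log2 scale. The sum of the haematopoietic markers was 855 to 1496 CPM in normoxic and 448 to 788 CPM in hypoxic samples. This sum did not overlap and moved the same way as Ly6c1, Ly6a, Thy1 and Cd34. Without Lyz2, the most abundant of the list, it was 202, 332 and 287 CPM under normoxia and 133, 241 and 163 CPM under hypoxia, with overlap. Of 10 endothelial markers 9 were tested, with 3 called higher, 2 lower and a median log2 fold change of -0.018. Their sum was 21.9 to 28.5 CPM in normoxic and 32.6 to 44.5 CPM in hypoxic samples. This sum did not overlap either and moved the opposite way to Ly6c1, Ly6a, Thy1 and Cd34. The endothelial markers called higher were Tek, Egfl7 and Vwf, and those called lower Kdr and Cldn5. Of 10 epithelial markers 3 were tested, and the keratin gene Krt19 was called higher, while Epcam and Esrp1 were at or near 0 counts. Krt19 is also a mesothelial marker, and mesothelial cells make podoplanin. Of 7 mesothelial markers 2 were tested and both were called higher, Krt19 from 0.71 ± 0.30 to 22.1 ± 1.66 CPM and Wt1 from 24.3 ± 4.35 to 41.2 ± 0.55 CPM (SD, n = 3 each). The sum of the 7 was 21.8 to 29.6 CPM in normoxic and 61.2 to 65.6 CPM in hypoxic samples, the same direction as Pdpn. Krt19 and Wt1 carried that rise. The other 5, Msln, Upk3b, Upk1b, Lrrn4 and Gpm6a, had too few counts to be tested, at most 16 in any sample, and their means were lower under hypoxia. The part of blood, endothelial, epithelial or mesothelial cells in the levels of the 10 genes was not tested. A sum of 8 fibroblast markers was 28572.4 to 35626.4 CPM in normoxic and 29989.8 to 34980.3 CPM in hypoxic samples, most of it from the collagen genes Col1a1, Col1a2 and Col3a1. Of these 8 markers 0 were called higher and 1 lower, with a median log2 fold change of 0.035, and the gene called was Lum, the proteoglycan lumican, from 221 ± 39.9 to 49.1 ± 12.9 CPM (SD, n = 3 each, edgeR adjusted p = 1.18e-05). Of 7 stellate cell markers 4 were tested, 0 were called higher and Ngfr was called lower (log2 fold change -1.50, edgeR adjusted p = 0.000282), with a list median of -0.52. Their sum was 218 to 242 CPM in normoxic and 168 to 199 CPM in hypoxic samples, the same direction as Ly6c1, Ly6a, Thy1 and Cd34. Of the genes that define quiescent stellate cells, Lrat had at most 1 count and Gfap at most 3 in any sample, while Des was at 16.6 ± 3.05 and 11.4 ± 0.942 CPM (SD, n = 3 each). As a check of the oxygen labels, all 10 of a list of hypoxia-induced genes were called higher, among them Car9, from 1.98 ± 0.261 to 69.2 ± 5.55 CPM (SD, n = 3 each).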

How the data were processed

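RNA of 6 PSC samples in coculture with mT3 organoids was analysed, 3 at 21% O2 and 3 at 1% O2, with conditions and replicate numbers from the sample titles. The authors made poly(A) libraries, trimmed and mapped the reads (GRCm38, STAR 2.6.1b) and estimated counts per gene with RSEM 1.3.1. The deposited values are expected counts, not scaled between samples, and 0 of them had a fraction, so rounding changed nothing. Totals ran from 24749601 to 31925054 per sample, at which 3 counts are 0.094 to 0.122 CPM. The annotation used for counting is not given in the sources used here; of 55421 Ensembl identifiers 55240 matched GENCODE M21. Replicates of the same condition each count as 1 sample.

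Genes kept by filterByExpr were scaled by TMM and tested with the quasi-likelihood F test of edgeR 4.0.16 (limma 3.58.1, R 4.3.3), with Benjamini-Hochberg adjustment over all 16207 genes. Calls use the thresholds of the study's methods, a fold change beyond 1.5 at an adjusted p under 0.05. Standard errors are the log2 fold change over the square root of F, and 95% intervals use the fit's degrees of freedom. Levels per kb divide CPM by the summed length of merged exons. RSEM divides reads shared by near-identical genes by an estimate, so shared 75-base stretches were counted in GENCODE transcripts. The fits were tested on simulated data. The members and lists were chosen with earlier results of these data known. Named genes are the 10 members, the genes of the study's flow gate, from each list up to 3 called genes with the largest change at a mean of at least 1 CPM, and the 3 genes nearest in pattern to Pdpn and to Ly6c1, and other single markers and list members were named after their values were seen. Alternatives were the replicate block, other scalings and filters, DESeq2 1.42.0, limma-voom, other thresholds, an exon length offset and each sample left out.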

Additional observations from a re-analysis of the deposited data

How the results depend on the processing

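The calls of the 10 surface markers were compared under 19 alternatives. The number called higher was 2 and the number called lower was 4 in the edgeR fit with the replicate number as a block, in DESeq2 with and without the block, in limma-voom, under other scalings and filters, with an exon length offset and in each fit that left out 1 sample. A fold change threshold of 2 left 0 genes called higher and kept 4 called lower, since Pdpn and Pdgfra changed by less than 2-fold. Without a fold threshold Eng was also called lower. Over all tested genes the calls were 3068 higher and 2479 lower, 5150 and 5018 without a fold threshold, 1929 and 1227 at a fold change of 2, and 3072 and 2500 with the replicate block. With each sample left out in turn, the log2 fold change ran from 0.93 to 1.04 for Pdpn, from 0.76 to 0.85 for Pdgfra, from -2.23 to -1.85 for Ly6c1, from -1.16 to -1.05 for Ly6a, from -1.11 to -0.92 for Thy1 and from -1.47 to -1.23 for Cd34. The sign of the 2 smallest differences was not stable. With each sample left out, Dpp4 ran from -0.089 to 0.22 (-0.0044 without normoxic sample 1, -0.089 without hypoxic sample 2), and Cspg4 from -0.36 to 0.078 (0.068 and 0.078 without hypoxic samples 1 and 3, 0.042 without normoxic sample 1). The difference in the Ly6C to Pdpn log2 ratio ran from -3.25 to -2.81 with each sample left out, and was -2.99 with Ly6c1 alone. Taking the replicate numbers as pairs cannot move this difference of means (-2.98), and its exact sign-flip permutation p was then 0.25, the smallest that 3 pairs can give. Deviations from the group means correlated across genes at 0.22, 0.19 and 0.053 for samples of replicate number 1, 2 and 3, and nothing in the labels says that a number marks a shared line or day. The other scalings moved the median log2 fold change of all tested genes by at most 0.024. Beyond the 10 genes, the replicate block changed the call of 2 genes named in the text. Ptprc was then called lower (log2 fold change -0.61, edgeR adjusted p = 0.0010), and Kdr was no longer called (edgeR adjusted p = 0.059). Cspg4 had the lowest counts of the 10 genes, 62 to 129, and the widest spread, 32.6% between hypoxic samples.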
